A study of Mus musculus with 16 samples.

Results

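A set of 104 genes, of 38918 features listed for mouse pre-B cells, had less exon RNA at 1.5 h of BLNK induction than in the control and was back near the control level at 5 h. Members were chosen from these values: at least 10 CPM in the control library, that is, uniquely placed exon reads per 1000000 such reads of the library, a ratio of 1.5 h to control of at most 0.714, which is a drop of 1.4-fold or more, and a ratio of 5 h to control between 0.833 and 1.5. The dip and the recovery of exon reads are therefore properties of the choice and are given as descriptions. Of 8445 features over the control floor, 265 reached the dip limit, which is 3.14%, and the 104 members make up 1.23% of features over the floor. The other 161 features under the dip limit stayed below the recovery range at 5 h, and 0 rose above it. The mirror image of the rule, a rise of 1.4-fold or more at 1.5 h followed by a return, was met by 129 features, or 1.53%.

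All groups were mouse pre-B cells with the genotype Blnk-/- KO that overexpress BLNK_ERt2 from a retroviral construct, so the controls carry both the deletion and the fusion. The groups were the control and cells stimulated for 0.5, 1.5 and 5 h. The ERt2 domain makes the fused protein dependent on tamoxifen, and the study's question was which genes are regulated after preBCR signalling. The promoter of the construct, the number of mice or clones behind the cells, the age of the mice and any vehicle given to the controls are not stated in the labels. Each condition is 1 library read on 4 lanes. Lanes of a library differed by about the sampling noise (chi-square over degrees of freedom 0.992 to 1.01) and were counted as 1 sample. No test between conditions was possible with 1 library each, and the 95% intervals below cover counting error only.

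The libraries held 29024598, 28570849, 27579420 and 26006350 uniquely placed exon reads in the control and at 0.5, 1.5 and 5 h. Blnk, the gene deleted in the mice and carried by the construct, was read at 4183, 4511, 4260 and 4177 CPM in the same order. Pre-B markers summed to between 16814 and 19322 CPM, T and NK cell markers to between 68.6 and 78.8, myeloid markers to between 51.1 and 89.1, erythroid and megakaryocyte markers to between 7.95 and 8.61, and stromal markers to between 0.560 and 1.12. The pre-B sum includes Blnk, which the construct carries. Rag1 and Rag2 of the same list were at 0.586 and 1.79 CPM in the control, where 7.42% and 20.7% of their exon reads were uniquely placed. Of the markers found, 6 of 17 T and NK, 2 of 15 myeloid, 2 of 16 erythroid and megakaryocyte and 5 of 15 stromal markers were at 0 in every library. No marker of these 5 lists was a member, but few of them could be. Only 12 pre-B markers, 2 of T or NK cells and 1 myeloid marker passed the control floor of 10 CPM. Stromal markers over the floor numbered 0, as did those of erythroid cells or megakaryocytes. Members were 1.23% of all features over the floor, a share at which so few genes hold 0 or few. Nothing is therefore read from the absence of members. Myeloid markers were lowest at 5 h, not at 1.5 h. The part of other cells in the results below was not tested.

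The preBCR carries the surrogate light chain on pre-B cells, and BLNK is the adaptor that joins its kinases to downstream enzymes. Signalling through PI3 kinase and AKT is known to hold FoxO transcription factors out of the nucleus, and FoxO factors drive genes of cell cycle exit, cell death and B cell development. In poly(A)-selected RNA, exon reads come mostly from finished mRNA, and reads outside exons come in large part from precursor RNA that still holds introns. A short-lived mRNA follows its precursor within a short time, while a long-lived mRNA lags behind. In bulk RNA, fewer cells that carry a transcript and less of it in each cell cannot be told apart.

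Within the set, exon reads had a median slightly under the control at 0.5 h, were lowest at 1.5 h in all 104 members and were back at 5 h. Of these, the rule did not set the position of 0.5 h. The median control level was 32.9 CPM. The median ratio to control was 0.933 at 0.5 h, 0.648 at 1.5 h and 0.944 at 5 h, and the median ratio of 5 h to 1.5 h was 1.47. At 1.5 h the members ranged from 0.473 to 0.714. At 0.5 h, the time the rule did not use, 72 of 104 members were below the control, against 53.2% of all features over the floor. At that time 0 members reached the dip limit, against 0.071% of all features. The counting interval at 0.5 h lay wholly under 1 in 42 members and wholly above 1 in 13. Of the 8445 features over the floor, it did so in 1826 and 1712. The 3 ratios share the control library, so they are not independent of each other.

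Reads outside exons were already lower at 0.5 h. These are unique reads in the gene's region that do not lie in its exons, given per 1000000 exon reads of the library, and 88 of the 104 members had at least 50 of them in the control. Of the 16 members under this minimum, 5 had 0 reads outside exons. Over the 88, the median ratio to control was 0.811 at 0.5 h, 0.741 at 1.5 h and 1.12 at 5 h. At 0.5 h 18 of 88 members, or 20.5%, were at or under 0.714, against 3.48% of the 7336 features measured. At 1.5 h the count was 35, or 39.8%, against 6.91%, and at 5 h it was 1, or 1.14%, against 1.95%. Low values outside exons at 0.5 and 1.5 h were not particular to the members. Of 131 measured genes that reached the dip limit and stayed lower, 33, or 25.2%, were at or under 0.714 at 0.5 h. At 1.5 h 79 of them were, or 60.3%. The counting interval lay wholly under 1 in 45, 64 and 4 members at the 3 times, against 16.2, 17.6 and 5.81% of measured features. The 1.5 h and 5 h values come from the same libraries that chose the members. The 0.5 h ratios share the control library, which the rule used too, so they are not independent of the choice. Over all 7336 measured features the median ratio was 0.996, 1.07 and 1.13 at 0.5, 1.5 and 5 h, so relative to the median of all features the members stood at 0.814, 0.692 and 0.985.

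Outside exons, 28 of 88 members were lowest at 0.5 h, a share near the 32.1% of all measured features, so it is no result about the set. At 1.5 h 58 were lowest, against 24.6%, and 1 each was lowest at 5 h and in the control. The low point of exon reads at 1.5 h is set by the rule, so the order of the kinds of read in time was not compared. Reads outside exons were higher at 5 h than at 1.5 h in 86 of 88 members, against 58.8% of measured features, and the counting interval lay above 1 in 75 of the 86, against 31.2% of measured features. They were higher at 1.5 h than at 0.5 h in 28 of 88, against 61.9% of measured features. The ratio outside exons was lower than the exon ratio in 63 of 88 members at 0.5 h, against 50.9% of measured features. At 1.5 h this held for 23 of 88, against 35.5%, a count that the choice of low exon ratios at 1.5 h affects. These traits were not particular to the members. Of the 131 measured genes that stayed lower, 91 were lowest outside exons at 1.5 h. From 1.5 h to 5 h 111 of the 131 rose, 78 of them with the counting interval above 1. From 0.5 h to 1.5 h 20 rose. At 0.5 h the ratio outside exons was lower than the exon ratio in 87 of the 131.

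**Figure D1:**
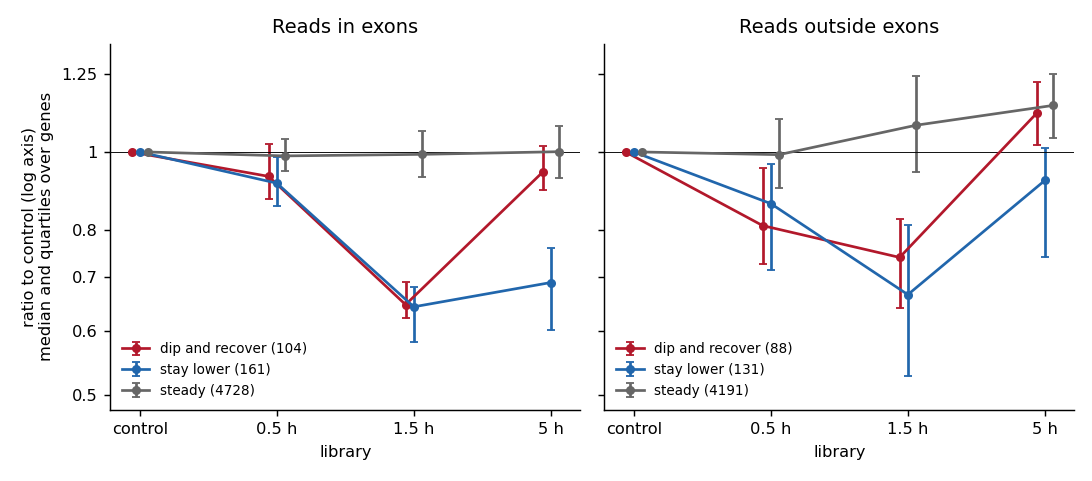
Ratio to the control library on a log axis for exon reads and for reads outside exons, with points for the median and bars for the quartiles over genes in 3 classes. Exon reads of the set are near 0.933 at 0.5 h and 0.648 at 1.5 h, while its reads outside exons are at 0.811 by 0.5 h and at 1.12 by 5 h.

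Summed over members, the kinds of read had different early values. Reads outside exons summed to 1552, 1315, 1175 and 1768 on the CPM scale in the control and at 0.5, 1.5 and 5 h, which gives ratios of 0.847, 0.757 and 1.14. Reads over an exon-intron boundary had ratios of 0.841, 0.688 and 1.06. Exon reads had ratios of 0.983, 0.645 and 0.982, and reads that join 2 exons had ratios of 1.05, 0.675 and 0.980. At 0.5 h the summed boundary reads, with a 95% interval of 0.791 to 0.895, were lower than in the control. The summed spliced reads, with an interval of 1.03 to 1.07, were not. Genes with many reads weigh most in these sums, and Cecr2 alone held 31980 of 235185 control exon reads. The median exon ratio over members at 0.5 h was 0.933. How the authors counted boundary reads is not stated, and they exceeded the reads outside exons in 333 features, so the categories may overlap.

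Genes of cell cycle exit and cell death held the lowest early values outside exons. The 7 members with this role were Ccng2, Trp53inp1, Hbp1, Tnfsf10, Bmf, Cdkn1b and Rbl2. Their exon ratios at 5 h were 0.987 to 1.22, with a median of 1.08, and 6 of the 7 had enough reads outside exons, with a median ratio of 0.741 at 0.5 h.

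Ccng2, at chromosome 5 positions 93267257 to 93276231 (mm10), encodes an unconventional cyclin linked to cell cycle arrest. Its exon reads were 251, 228, 132 and 248 CPM in the control and at 0.5, 1.5 and 5 h. Outside exons it had 281, 135, 185 and 249 reads, a ratio of 0.488 (95% interval 0.395 to 0.601) at 0.5 h, 0.693 at 1.5 h and 0.989 at 5 h. The reads outside exons were lowest at 0.5 h, when the exon reads were at 0.908 of the control. The rule chose low exon reads at 1.5 h, so the order of the 2 kinds of read is not read from this gene.

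Trp53inp1, at chromosome 4 positions 11156431 to 11174379, encodes a stress protein induced by p53 that acts in cell death and autophagy. Its exon reads were 435, 397, 244 and 505 CPM. Its 598, 271, 337 and 654 reads outside exons gave ratios of 0.460 (0.397 to 0.532), 0.593 and 1.22. The value at 0.5 h was the lowest outside exons of the 88 measured members, and at 5 h both kinds of read were above the control. Outside exons, the 5 h interval of 1.09 to 1.37 includes 1.13, the median of all measured features at that time.

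The other genes of this role shared the exon dip. Outside exons, all 6 measured genes of the role were below the control at 0.5 h, with ratios of 0.460 to 0.883. Of these, 2 were at or under 0.714. Cdkn1b, which encodes the CDK inhibitor p27, had 246, 239, 163 and 266 CPM. It had only 40 reads outside exons in the control, under the minimum. Hbp1, which encodes a repressor that slows cell cycle entry, had 36.8, 34.3, 21.4 and 39.2 CPM, and its ratios outside exons were 0.757, 0.982 and 1.27. Bmf, which encodes a BH3-only protein of the BCL2 family that promotes death, had 51.2, 46.8, 33.5 and 62.4 CPM, and its ratios outside exons were 0.776, 1.003 and 1.72. In Hbp1 and Bmf the reads outside exons were near the control level at 1.5 h, the time at which the rule chose low exon reads. Rbl2, which encodes the RB family protein p130, had 42.0, 42.7, 29.9 and 43.0 CPM and ratios outside exons of 0.725, 0.621 and 1.03. In Hbp1 and Rbl2 69.3% and 71.9% of control exon reads were uniquely placed, and both overlap another listed feature. Tnfsf10, which encodes the death ligand TRAIL, had 17.9, 16.8, 10.5 and 21.0 CPM.

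**Figure D2:**
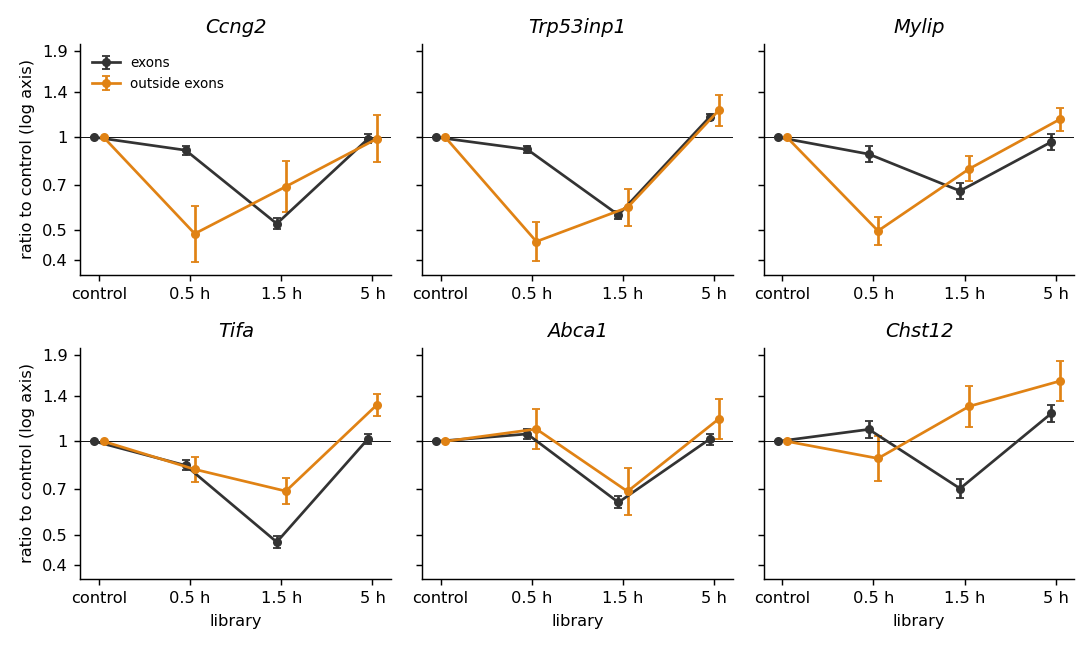
Ratio to control on a log axis for exon reads and reads outside exons of 6 members in the 4 libraries, with 95% counting intervals. Reads outside exons of Ccng2, Trp53inp1 and Mylip are lowest at 0.5 h, those of Tifa and Abca1 at 1.5 h, and those of Chst12 are at 0.881, 1.30 and 1.57.

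The FoxO targets among the 17 gene lists bear on the same genes. Of 21 list members over the floor, 6 reached the dip limit: Ccng2, Pik3ip1 and Cdkn1b recovered, and Sesn1, Foxo1 and Syk were below the recovery range at 5 h. The list's share of members, 14.3%, stands beside 1.23% for all features, and its median exon ratio at 1.5 h was 0.889, against 0.993 for all. The list was written with earlier results of these data known, so this is a description. Foxo1 itself had 196, 184, 114 and 132 CPM and ratios outside exons of 0.968, 0.746 and 0.805. Sesn1 and Syk lay just under the recovery range, each at 0.830 of the control. In the same list Ccnd2, a D-type cyclin, and Trib1, a pseudokinase, were higher, with exon ratios at 1.5 h of 1.44 and 1.48, and Foxo3 was at 0.969.

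Receptors and intracellular signalling proteins were the largest role, with 20 members. Their exon ratios at 1.5 h ran from 0.473 to 0.707. Of 17 with enough reads outside exons, 3 were at or under 0.714 at 0.5 h and 4 at 1.5 h. The shares at these times were 3.48% and 6.91% of all measured features, and 20.5% and 39.8% of all measured members. Several restrain signalling: Pik3ip1 encodes a membrane inhibitor of PI3 kinase, Sigirr an inhibitory member of the IL-1 receptor family, Tnfaip8l2 an inhibitor of immune receptor signalling, and Pde4b a phosphodiesterase that breaks down cyclic AMP.

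Tifa, at chromosome 3 positions 127789872 to 127832135, encodes an adaptor that binds TRAF6 upstream of NF-kB and had the lowest exon ratio of the set at 1.5 h. Its exon reads were 214, 179, 101 and 217 CPM, a ratio of 0.473 (0.452 to 0.495) at 1.5 h and 1.02 at 5 h. Its reads outside exons had ratios of 0.812, 0.691 and 1.31. Tifab, a related protein on another chromosome that restrains TIFA signalling, had 157, 138, 100.4 and 155 CPM and ratios outside exons of 0.640, 0.582 and 0.960. Both genes of this pair were thus lower at 0.5 h in each kind of read and lowest at 1.5 h. At 5 h their exon reads were near the control, and reads outside exons of Tifa were above it (1.21 to 1.43).

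Pik3ip1 had 110, 94.6, 62.1 and 109.9 CPM, and outside exons its ratios were 0.674 (0.584 to 0.776), 0.811 and 1.07. Pde4b had 70.2, 69.3, 36.1 and 64.0 CPM, and its ratios outside exons were 0.548 (0.430 to 0.695), 0.787 and 1.14. In both, the lowest value outside exons was at 0.5 h. At 0.5 h the exon reads of Pde4b were at 0.987 of the control and its reads outside exons at 0.548.

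Cytokine receptors were members too. Il10ra had 120, 126, 76.7 and 126 CPM, and Il15ra had 16.1, 15.4, 11.2 and 16.8 CPM. For some members reads outside exons were not below the control at 1.5 h. Il15ra and Rhoh, which encodes a GTPase of blood cells that lacks GTP-hydrolysing activity, had ratios outside exons of 1.03 and 1.05 at that time. Chst12, a sulfotransferase of chondroitin chains, had the highest ratio of the measured members at 1.5 h, 1.30 (1.11 to 1.51), beside an exon ratio of 0.704. Tec, a kinase of the B cell receptor pathway, had 98.0, 101, 69.3 and 102 CPM.

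**Figure D3:**
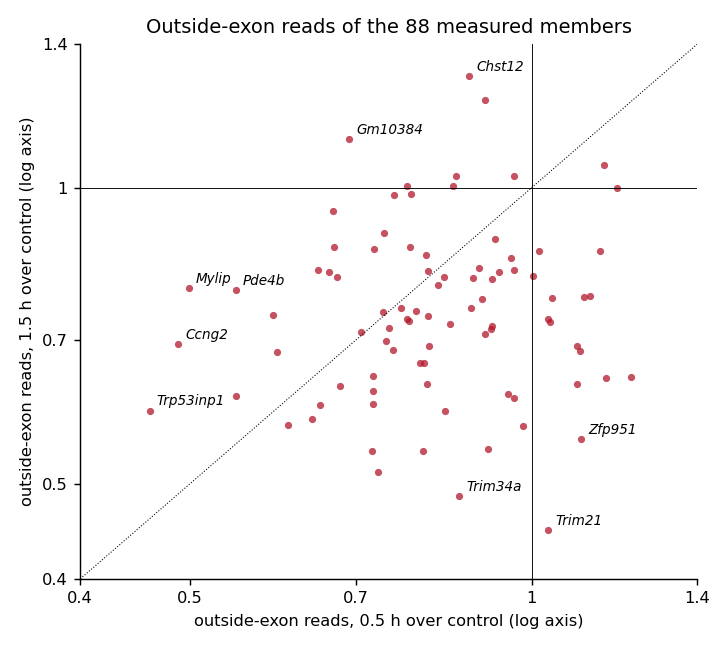
Ratio to control of reads outside exons at 0.5 h and at 1.5 h for the 88 measured members, with 0.5 h on the horizontal and 1.5 h on the vertical log axis and a dotted line of equal ratios. Points above the line, such as Ccng2, Trp53inp1, Mylip and Pde4b, were lower at 0.5 h, points below it, such as Trim34a and Zfp951, were lower at 1.5 h, and Chst12 lies above 1 at 1.5 h.

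Genes of cholesterol export and lipid turnover formed another group. Abca1 and Abcg1 encode pumps that move cholesterol and phospholipid out of cells, and Mylip encodes the ubiquitin ligase IDOL, which marks the LDL receptor for breakdown. All 3 are textbook targets of the liver X receptors. Abca1 had 179, 189, 114 and 182 CPM and ratios outside exons of 1.096, 0.689 (0.580 to 0.818) and 1.18. Abcg1 had 275, 265, 176 and 261 CPM and ratios outside exons of 0.727, 0.866 and 1.19. Mylip had 87.7, 77.3, 58.8 and 84.6 CPM and ratios outside exons of 0.498 (0.448 to 0.554), 0.790 and 1.14. So Mylip and Abcg1 were lowest outside exons at 0.5 h and Abca1 at 1.5 h. In a list of 16 liver X receptor genes written after the members were known, 10 were over the floor and these 3 were the ones under the dip limit, which 3.14% of all features reached. Since the list was built around them, nothing is read from that count. The list's median exon ratio at 1.5 h was 0.923. Srebf1, a regulator of lipid synthesis in that list, was at 0.870, and Scd1 and Fasn, enzymes of fatty acid synthesis, were at 1.15 and 1.24.

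The 12 members of lipid, sterol and intermediary metabolism had exon ratios at 1.5 h of 0.529 to 0.714. Sgms1, a sphingomyelin synthase, was lowest, with 34.5, 34.7, 18.2 and 32.5 CPM. Crot, a carnitine transferase of peroxisomal fatty acid oxidation, had 54.7, 50.1, 32.7 and 49.5 CPM, and Mlycd, which breaks down malonyl-CoA, had 15.4, 13.7, 10.6 and 15.7 CPM. Oxsm and Mcat, enzymes of mitochondrial fatty acid synthesis, were both members, with exon ratios at 1.5 h of 0.642 and 0.697. Outside exons the 11 measured members of this role had a median ratio of 0.914 at 0.5 h and 0.720 at 1.5 h.

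Autophagy and ubiquitin genes gave 13 members. Atg14, a subunit of the lipid kinase complex that starts autophagosomes, had 23.6, 19.1, 14.0 and 23.8 CPM. Nbr1, a receptor that carries ubiquitin-marked cargo into autophagosomes, had 140.3, 151, 90.5 and 142 CPM, with a ratio outside exons of 0.648 at 0.5 h and 0.825 at 1.5 h. Wdr45, which acts in autophagosome formation, had 38.3, 35.5, 27.3 and 38.6 CPM and ratios outside exons of 0.596, 0.681 and 1.02. In a list of 44 autophagy genes written after the members were known, 37 were over the floor, 4 were members (1.23% of all features were), 0 reached the dip limit and stayed lower, and the median exon ratio at 1.5 h was 0.911. Other genes of the list lay on both sides of the control at 1.5 h. Becn1, Sqstm1 and Uvrag were at 1.05, 1.02 and 1.14, and Atg13, Pik3c3, Ulk2 and Rb1cc1 at 0.746, 0.772, 0.789 and 0.796. In Becn1 38.3% of control exon reads were uniquely placed.

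Among symbols of ubiquitin ligases and peptidases, 8 of 170 over the floor were members, or 4.71%, against 1.23% of all features. They included Klhl6, an adaptor needed for germinal centre B cells, with 372, 347, 258 and 356 CPM, and Fbxl5, the iron-sensing F-box protein, with 133, 132, 90.1 and 112 CPM. Trim34a had the lowest ratio outside exons at 1.5 h among members with at least 100 such reads, 0.485 (0.428 to 0.549), with 27.8, 24, 13.5 and 28.0 on the CPM scale in the 4 libraries. In Trim34a 39.6% of control exon reads were uniquely placed, which leaves its values uncertain. Also under 50% unique were Atxn7l1 at 38.0%, Zfand1 at 40.8% and Gm4070 at 3.61%, while 88 of 104 were over 95%.

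Among Zfp, Znf and related zinc finger symbols, 10 of 206 over the floor were members, or 4.85%, against 1.23% of all features. The family was taken by symbol. The role of the 10 members is C2H2 zinc finger proteins, most of which are DNA-binding repressors. The family's median exon ratio at 1.5 h was 1.003. Zscan2 was lowest, with 20.7, 19.5, 10.8 and 17.3 CPM and a ratio of 0.523 (0.453 to 0.602). In a cluster on chromosome 17 between 20 and 24 Mb, 4 of 13 zinc finger genes over the floor were members, which were Zfp53, Zfp760, Zfp945 and Zfp40, with ratios of 0.611, 0.601, 0.658 and 0.567. Their neighbours did not all dip: Zfp160 was at 1.06, Zfp51 at 1.05 and Zfp942 at 1.002, and the median of the 13 was 0.919.

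Chromatin and transcription proteins gave 8 members. Cecr2, a bromodomain protein of chromatin remodelling complexes, had 1102, 1178, 784 and 1016 CPM, and its 3717, 2962, 2614 and 3534 reads outside exons gave ratios of 0.810, 0.740 and 1.06. Bcl7a, a subunit of the BAF remodelling complex, had 350.0, 367, 203 and 324 CPM. Both had more exon reads at 0.5 h than in the control, with ratios of 1.07 and 1.05, and fewer reads outside exons. Kdm3a, which removes methyl groups from lysine 9 of histone H3, had 207, 206, 147 and 195 CPM. Phf1 and Cbx7, accessory and reader proteins of the Polycomb complexes, had exon ratios at 1.5 h of 0.699 and 0.688. Phf1 was the 1 measured member at or under 0.714 outside exons at 5 h, at 0.681.

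The remaining roles were small. Among members of glycan and anchor synthesis, Cmas, which activates sialic acid, Chst12 and Pigv, which adds a mannose to membrane anchors, had exon ratios at 1.5 h of 0.699, 0.704 and 0.713. Lig4, the DNA ligase that seals breaks in V(D)J recombination, had 38.2, 40.1, 25.1 and 42.1 CPM. Gpr155 had 48.1, 51.6, 23.1 and 62.1 CPM, the second lowest ratio of the set at 1.5 h, 0.481, and the highest return, at 2.69 times the 1.5 h level by 5 h. Atxn7l1 had the highest exon ratio of the set at 0.5 h, 1.24, and Zfand1 the lowest, 0.749. In all, 30 members were given no role, and 10 of the 104 carry predicted or unnamed symbols or a coordinate in their name.

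**Figure D4:**
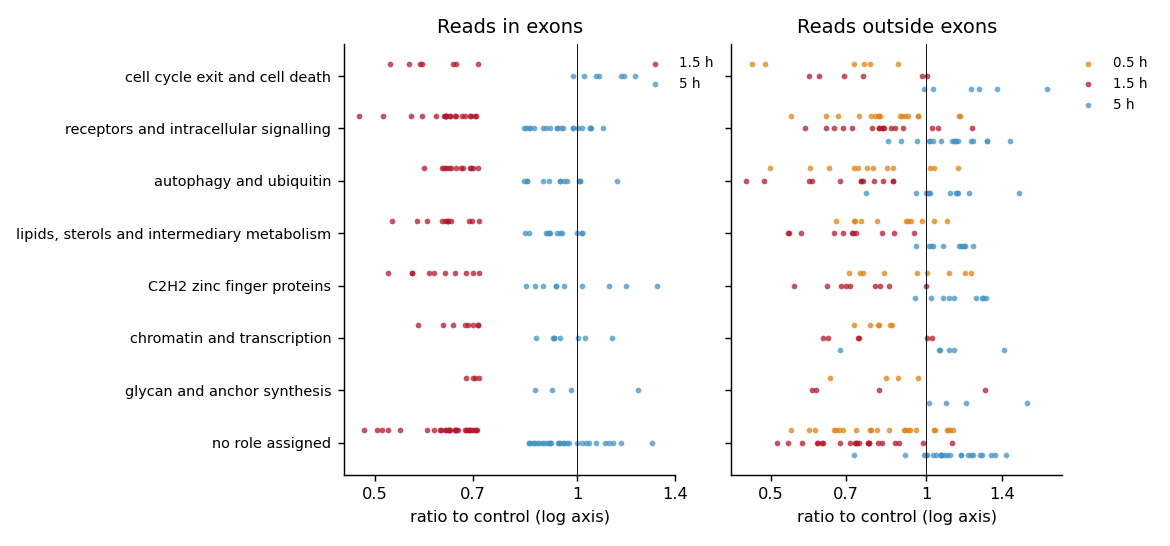
Ratio to control on a log axis for each member, by role, with 1 point per member and colours for the time, and reads outside exons only for the 88 measured members. Exon points at 1.5 h end at 0.714 by the rule, while points outside exons at 1.5 h run from 0.448 to 1.30.

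Member counts in lists of the surrounding pathways stand beside the 1.23% of all features, at which small lists hold 0 or few. Of 49 genes of PI3 kinase and preBCR signalling over the floor, 0 were members and 4 stayed lower, which were Pik3r5, Cd22, Pik3cd and Syk. The list of short-lived regulatory RNAs gave 2 members of 54, or 3.704%, Ccng2 and Cdkn1b, with 8 that stayed lower and 12 that were at least 1.4-fold higher at 1.5 h. Immediate early genes (15 over the floor), B lineage transcription factors (37), IL-7 and STAT5 targets (18) and S phase and G2/M genes (34) held 0 members. Ribosome biogenesis genes (31) held 0 too, and 19 of these 31 were at least 1.4-fold higher at 1.5 h. Over all features with the floor, the upper quartile of the exon ratio at 1.5 h was 1.11. Of 16 RB family, CDK inhibitor and related genes, listed after the members were known and built around them, 4 were members, and Cdkn2c, a CDK inhibitor outside the set, was at 0.739.

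Promoters of 77 members were found in RefSeq (GRCm38.p6), as 250 bases before to 50 after each annotated start, and 27 had no entry. The motifs searched on both strands were the FoxO element GTAAACA, the E-box CACGTG, the cyclic AMP response element TGACGTCA, the Ets site CCGGAAG and the CCAAT box, written CCAAT, none of which contains another. The FoxO element was in 2 of 77 promoters, or 2.60%, against 2.32% of 6466 features over the floor. The E-box was in 7.79% against 11.2%, the cyclic AMP response element in 1.30% against 3.60%, the Ets site in 16.9% against 22.7%, and the CCAAT box in 45.5% against 39.9%. A match describes the letters and not a bound site. The promoters of Ccng2 and Mylip, lowest outside exons at 0.5 h, of Hbp1, with a FoxO element, and of Abca1, lowest outside exons at 1.5 h, are printed as examples of both kinds of time course, with matches to these motifs in capitals and each read 5′ to 3′ on the gene's strand:
Ccng2: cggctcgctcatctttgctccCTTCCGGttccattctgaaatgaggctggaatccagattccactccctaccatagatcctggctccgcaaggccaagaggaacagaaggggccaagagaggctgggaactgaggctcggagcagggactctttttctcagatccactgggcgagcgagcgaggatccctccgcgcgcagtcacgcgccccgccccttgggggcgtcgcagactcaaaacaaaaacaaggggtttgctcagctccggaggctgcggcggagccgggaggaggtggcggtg
Mylip: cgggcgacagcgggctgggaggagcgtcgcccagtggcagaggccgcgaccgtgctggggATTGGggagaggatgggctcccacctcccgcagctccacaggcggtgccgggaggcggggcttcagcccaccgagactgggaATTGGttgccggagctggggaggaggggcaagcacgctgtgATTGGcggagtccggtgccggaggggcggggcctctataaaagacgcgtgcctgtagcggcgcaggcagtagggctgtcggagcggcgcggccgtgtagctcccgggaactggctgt
Hbp1: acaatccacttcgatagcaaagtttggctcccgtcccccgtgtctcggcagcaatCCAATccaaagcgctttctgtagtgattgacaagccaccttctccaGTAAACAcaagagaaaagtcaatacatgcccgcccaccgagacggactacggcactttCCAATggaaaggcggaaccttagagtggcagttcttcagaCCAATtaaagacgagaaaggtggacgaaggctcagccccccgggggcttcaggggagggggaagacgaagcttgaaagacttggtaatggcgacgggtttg
Abca1: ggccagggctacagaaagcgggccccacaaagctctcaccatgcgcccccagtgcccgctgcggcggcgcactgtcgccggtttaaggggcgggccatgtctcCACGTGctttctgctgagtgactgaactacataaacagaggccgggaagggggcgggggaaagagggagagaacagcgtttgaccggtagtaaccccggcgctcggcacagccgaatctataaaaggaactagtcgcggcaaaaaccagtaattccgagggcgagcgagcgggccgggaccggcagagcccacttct
The windows lie at chr5:93267323-93267622 (plus strand), chr13:45389492-45389791 (plus), chr12:31950196-31950495 (minus) and chr4:53159846-53160145 (minus). The deposited feature of Ccng2 begins 316 bases, and that of Hbp1 290 bases, from the RefSeq start, so their windows are those of RefSeq's start alone.

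Transcripts of members were also described by measures the rule did not use. In the control, 17.3% of the gene reads of the median member lay outside exons, against 11.6% for all features over the floor, and 10.9% of its exon reads joined 2 exons, against 20.8%. The median 3′ UTR was 1421 bases in 97 members matched to GENCODE vM21, against 1250 bases for all and 1114 for the genes that stayed lower. The AU-rich letters TATTTAT were in the 3′ UTR of 46.4% of members, against 32.0% of all and 26.2% of the genes that stayed lower. Per kilobase of 3′ UTR the core ATTTA occurred 1.84 times in members, 1.84 in all and 1.45 in genes that stayed lower. Transcripts of members had a median GC content of 47.7%, against 49.8% for all and 54.2% for genes that stayed lower.

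The 161 genes that stayed lower had nearly the same exon dip, with a median of 0.644 at 1.5 h, and were at 0.690 at 5 h, both set by the rule. Outside exons, 131 were measured, with medians of 0.863, 0.666 and 0.922 at 0.5, 1.5 and 5 h. At 5 h 26 of these 131, or 19.8%, were at or under 0.714, beside 1 of 88 members. Pgf, a growth factor of the VEGF family, was among the 161, with 13.1, 13.1, 3.05 and 4.69 CPM. The 4728 steady genes, within 1.2-fold of control in exon reads at each time, had medians outside exons of 0.992, 1.08 and 1.14. At 5 h members and steady genes thus had nearly the same median outside exons, 1.12 and 1.14.

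The limits of the rule cut through a continuous range. Just inside the dip limit lay Pigv, Zfp157 and Acad10, and just outside it Poli, Tmem126b and Tctn1, with ratios of 0.713, 0.713, 0.714, 0.714, 0.714 and 0.715. At 5 h Trim34a, Map3k12 and Acad10 were the lowest members, from 0.833 to 0.837, and Chst12, Gpr155 and Zfp951 the highest, from 1.23 to 1.31. The counting interval at 1.5 h lay wholly at or under 0.714 in 44 of 104 members, and it lay under 1 in all 104. Members near a limit lost the call in some of 8 other settings of scaling, reads and lanes: Pigv met the rule in 2 of them, Wdr45, Zfp157 and Acad10 in 3, Cecr2, Kdm3a, Rbl2, Map3k12 and Trim34a in 4, and Tec, Chst12 and Cbx7 in 5. In single lanes 103 or 104 members were below their control, and 81 to 86 were at or under the limit. Members that overlap another listed feature number 36, and since counting by strand is not stated, reads of overlapping genes cannot be told apart in them. They include Tifa, Pik3ip1, Abcg1, Nbr1, Wdr45, Trim34a and Phf1, whose ratios outside exons are given above.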

How the data were processed

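RNA of the pre-B cells was poly(A)-selected and sequenced on an Illumina HiSeq after TruSeq or NEBNext library preparation, per the labels' protocols, which do not tie kits to libraries. CASAVA 1.8.2 and mm10 are named in the submitters' processing notes. Aligner and counter were not given in the sources used here. Raw counts fill the deposited tables, per the file headers: unique and total reads per feature and lane in exons, in the gene region, over exon-exon junctions and over exon-intron boundaries. The RPKM columns the authors deposited were not used. The 16 samples are 4 lanes of each of 4 libraries, which were summed.

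Unique exon counts were scaled to CPM by each library's sum. Reads outside exons are unique gene reads minus unique exon reads, per 1000000 unique exon reads. Ratios carry exact Clopper-Pearson 95% intervals of the binomial split of the reads, which cover counting error only, since the reads carry no molecular identifiers. A count of 0 allows up to 3 counts, or 0.103 to 0.115 CPM. Calls are by size, with no test. Alternatives used TMM factors (edgeR 4.0.16) and median-ratio size factors (DESeq2 1.42.0). The selection and intervals were tested on simulated counts. Python 3.11.15, pandas 2.3.3, numpy 2.4.6, scipy 1.17.1 and R 4.3.3 were used.

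The members and the 17 gene lists were chosen with earlier results of these data known, and roles and 3 further lists were written after the members were seen. The rule for named genes took, with predicted symbols left out, the 12 lowest exon ratios at 1.5 h, the 8 highest control CPM, the 8 lowest and 4 highest ratios outside exons at 1.5 h (at least 100 reads), the 4 lowest and 4 highest exon ratios at 0.5 h, up to 4 members of each list, and the 3 genes on each side of the dip limit. Other members were named by role after their values were seen, and not every gene the rule takes is printed. A few members are not reported here by name.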

Additional observations from a re-analysis of the deposited data

How the results depend on the processing

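With 1 library per condition, differences between cultures are not measured, and the intervals hold counting error alone. The number of members was 96 with either set of scaling factors, 105 with total reads, 105 to 114 with a lane left out and 77 with a control floor of 20 CPM. A total of 60 members met the rule in all 8 settings of scaling, reads and lanes. The number of members became 232 with a floor of 1 CPM, 331 with a dip limit of 0.8, 2 with one of 0.5, 59 with recovery within 1.1-fold, 44 when the counting interval had to lie at or under the limit, and 194 with recovery from 1 over 1.5, which was added after seeing the data. These moves follow from the wider or narrower limits themselves.

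Outside exons at 0.5, 1.5 and 5 h, members at or under 0.714 numbered 11, 23 and 0 of 54 with at least 200 control reads, and 12, 20 and 0 of the 56 measured members that overlap no other listed feature, an alternative added after seeing the data. Fewer members are measured in both. Intervals wholly under 1 numbered 45, 64 and 4 of 88, against 16.2, 17.6 and 5.81% of all features. The 5 h count of 1 became 2 with a minimum of 20 reads, 3 when scaled to all reads outside exons, 3 after centring on the median of all measured features, and 0 to 2 with a lane left out: 2 without lane 1 or lane 4 and 0 without lane 3. The median log2 ratio outside exons at 5 h, 0.16, became -0.027 when scaled to all reads outside exons and -0.021 after centring, since both remove the rise of all features. At 1.5 h these 2 scalings gave 49 members at or under the limit, against 35.

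Replicate numbers are sequencing lanes of the same libraries. With lanes as the replicate block, the counts were 104 members, 17, 34 and 1 members outside exons at 0.5, 1.5 and 5 h, and 72 members below the control in exon reads at 0.5 h, so the block changed no call by over 1.5 times.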
